A study of Homo sapiens with 36 samples.

Results

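The nuclear genes of the mitochondrial respiratory chain were followed across 3 prostate cancer cell lines. Members were all genes whose symbol in the current probe annotation begins with NDUF (complex I), SDHA, SDHB, SDHC or SDHD (complex II), UQCR (complex III), COX4 to COX8 (complex IV) or ATP5 (ATP synthase), with 6 pseudogenes left out. This prefix rule found 95 genes of the 20046 with a probe, and 87 of them passed the signal filter and were tested among 12360 genes. The prefixes also take in 12 tested assembly factors of complexes I and II, the ATP synthase inhibitor ATP5IF1, and NDUFB2-AS1, a long non-coding RNA that is no subunit and was not tested. The rule uses gene symbols only.

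The lines were DU145, labelled as radiation resistant, and PC-3 and 22Rv1, both labelled as radiation sensitive. Each line was given vorinostat, an inhibitor of histone deacetylases, at 1 µM for 24 h or its solvent, in hypoxia at 0.2% oxygen for 24 h or in normoxia. The 12 groups were hypoxia with vorinostat, normoxia with vorinostat, hypoxia with solvent and normoxia with solvent in each of the 3 lines, with 3 single-colour bead arrays of total RNA in each group and 36 in all. The solvent group in normoxia is labelled untreated in 1 field and solvent in another, so it is called solvent here. RNA was taken before any irradiation, and each line stands for 1 tumour. The 3 arrays of a group are numbered replicates with no statement of separate cultures, so p-values measure the spread between these arrays, which may be technical.

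Complexes I to IV pass electrons, taken from NADH or succinate, on to oxygen, and complexes I, III and IV pump protons across the inner mitochondrial membrane. ATP synthase uses the proton gradient to make ATP. Most subunits are coded in the nucleus and joined, with the help of assembly factors, to a few core subunits coded by mitochondrial DNA. Subunit genes are often described with promoter motifs of NRF1, of ETS factors such as GABP and of YY1. Hypoxia is known to lower electron flow, partly through isoform exchange in complex IV and loss of iron-sulfur cluster supply.

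Promoters are shown for 4 members as examples, from 250 bases before to 50 bases after the RefSeq start on GRCh38.p14. They run 5′ to 3′ on the gene's strand. COX7B2 was above background in PC-3 alone, COX6A1 was higher and NDUFA6 lower with vorinostat in every line, and NDUFAF4 was lower in hypoxia in every line. Capitals mark exact matches, on either strand, to GCATGCG (NRF1), CCGGAAG (ETS) and AAGATGG (YY1). The CCGGAAG and AAGATGG motifs can share the letters AAG. COX7B2 is on the minus strand at chr4:46909196-46909495, COX6A1 on the plus strand at chr12:120437863-120438162, NDUFA6 on the minus strand at chr22:42090723-42091022 and NDUFAF4 on the minus strand at chr6:96897842-96898141.
COX7B2: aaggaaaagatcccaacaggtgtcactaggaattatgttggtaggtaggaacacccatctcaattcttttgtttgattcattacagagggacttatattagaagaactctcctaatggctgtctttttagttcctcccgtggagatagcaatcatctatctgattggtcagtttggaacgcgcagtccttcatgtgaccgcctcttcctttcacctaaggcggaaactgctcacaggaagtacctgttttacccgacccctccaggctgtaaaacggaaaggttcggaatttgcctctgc
COX6A1: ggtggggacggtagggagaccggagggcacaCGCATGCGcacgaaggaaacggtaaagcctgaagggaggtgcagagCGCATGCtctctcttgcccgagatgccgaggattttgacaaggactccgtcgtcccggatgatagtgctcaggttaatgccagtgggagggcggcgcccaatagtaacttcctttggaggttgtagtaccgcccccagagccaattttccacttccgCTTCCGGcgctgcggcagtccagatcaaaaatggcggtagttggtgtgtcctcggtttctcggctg
NDUFA6: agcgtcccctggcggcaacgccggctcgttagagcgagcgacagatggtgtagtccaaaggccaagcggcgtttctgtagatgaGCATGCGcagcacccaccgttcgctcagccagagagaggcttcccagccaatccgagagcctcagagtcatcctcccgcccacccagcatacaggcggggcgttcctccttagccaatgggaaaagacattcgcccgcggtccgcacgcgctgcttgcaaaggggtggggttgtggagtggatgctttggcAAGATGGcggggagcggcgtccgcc
NDUFAF4: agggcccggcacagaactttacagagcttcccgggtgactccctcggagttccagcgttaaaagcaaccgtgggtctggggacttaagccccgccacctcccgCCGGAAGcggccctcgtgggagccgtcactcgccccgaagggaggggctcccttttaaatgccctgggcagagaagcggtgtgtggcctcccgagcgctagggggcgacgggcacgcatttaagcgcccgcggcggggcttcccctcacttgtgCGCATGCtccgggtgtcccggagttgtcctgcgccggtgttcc

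COX6A1 held the NRF1 motif at 2 places and the ETS motif at 1, NDUFA6 the NRF1 and YY1 motifs, NDUFAF4 the ETS and NRF1 motifs, and COX7B2 none of the 3. These examples do not stand for all members that moved. The NRF1 motif stood in 2 of 6 promoters of members higher with vorinostat in every line, and in 2 of 8 of those lower. It stood in 3 of 24 promoters of members lower in hypoxia in at least 1 line. RefSeq promoters matched 80 of the 95 members by gene identifier. The NRF1 motif stood in 18.8% of these member promoters, against 4.13% of all 27305 promoters of the same length. The ETS motif stood in 27.5% of member promoters, against 10.7% of all promoters. The YY1 motif stood in 18.8% of member promoters, against 6.06% of all. The hypoxia response motif ACGTG stood in 26.2% of member promoters, against 21.6% of all. The median member promoter had 61% G and C and 23 CpG sites, against 58.3% and 14 for all promoters. The set of all promoters holds 1 for each gene, with no choice by gene type or expression. It was not matched to the members, which were mostly expressed genes that code for proteins. A match is a description of letters and not a bound site.

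On each array, between 30.1% and 35.7% of the 47323 probes were above background, meaning a detection p-value under 0.01. The epithelial markers CDH1, EPCAM, KRT8 and KRT18 were above background on all 12 arrays of each line. KLK2 was above background on all 12 arrays of 22Rv1 and on 0 arrays of the other lines, and the prostate-specific antigen gene KLK3 on 0 of 36. TMPRSS2 was above background on all 12 arrays of PC-3 and all 12 of 22Rv1, and on 0 of DU145. Of 12 markers of fibroblasts, endothelium, leukocytes and liver, 8 in DU145, 5 in PC-3 and 8 in 22Rv1 were above background on 0 arrays. ALB and CD68 were above background on all 36 arrays and PECAM1 on all 12 of PC-3. The fibroblast gene COL1A1 was above background on all 12 arrays of PC-3, 5 of DU145 and 4 of 22Rv1, COL3A1 on 7 of PC-3 and 0 of the others, DCN on 1 of PC-3, and the monocyte gene CD14 on 9 arrays of PC-3 and 6 of each other line. The part of these markers in the results was not tested. NDRG1, 1 of 7 hypoxia-induced genes looked at, was higher in hypoxia by 3.39 in DU145, 2.36 in PC-3 and 2.74 in 22Rv1 on the log2 scale. Of these 7, 5 in DU145, 6 in PC-3 and 5 in 22Rv1 were above background on all 12 arrays. EGLN3 was above background on 2 arrays of DU145, 0 of PC-3 and 1 of 22Rv1. Changes of the other genes on this list are not given here.

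Of the 87 tested members, 80 were above background on every array. Among the 7 others, COX7B2 was above background on 12 arrays, all of PC-3, and NDUFB4 on 12 arrays, all of 22Rv1. The tissue-restricted isoforms COX4I2, COX6A2, COX6B2, COX7A1 and COX8C were above background on 0 of 36 arrays and were not tested. NDUFA5 and NDUFS6, both accessory subunits of complex I, were also above background on 0 arrays and were not tested. All values below are normalised log2 signals of 1 probe, and all differences are log2 differences from limma with p-values adjusted over all 12360 genes. A difference is said to have passed, or a gene to have risen or fallen, where its adjusted p was under 0.05. The median level of the members lay at the 94.96th percentile of all genes tested. Their median SD between replicates was 0.095 in DU145, 0.099 in PC-3 and 0.064 in 22Rv1, against 0.147, 0.164 and 0.108 over all genes. The shares of all genes given below thus come from dimmer and more variable probes, which was not allowed for. In bulk RNA, fewer cells of a kind and less RNA per cell cannot be told apart.

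Without drug and in normoxia, most members were lower in DU145 than in PC-3 or 22Rv1, and lower in PC-3 than in 22Rv1. In DU145 against 22Rv1, 6 of 87 members were higher and 65 lower, where 64.8% of all genes tested passed (30.4% higher and 34.4% lower). The median difference of the members was -0.61, against -0.03 over all genes. In DU145 against PC-3, 18 members were higher and 48 lower, where 62.3% of all genes passed (31.3% higher and 31% lower), with a member median of -0.27. In PC-3 against 22Rv1, 17 were higher and 48 lower, where 68.4% of all genes passed (31.9% higher and 36.4% lower), with a member median of -0.36. With median scaling in place of quantile normalisation the last split was 10 higher and 53 lower. In total, 46 members were highest in 22Rv1 against both other lines, 14 in PC-3 and 2 in DU145. These are 52.9%, 16.1% and 2.30% of the members, against 23.2%, 18.8% and 16.1% of all genes. A stepwise order, with DU145 below PC-3 and PC-3 below 22Rv1, held for 20 members, with every step passing, which is 23.0% of the members, against 5.19% of all genes.

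By role, the difference between DU145 and 22Rv1 was seen across complexes I, III and IV. Of 28 accessory subunits of complex I, 0 were higher and 22 lower in DU145 (median -0.94), and of 6 core subunits, which carry the flavin and the iron-sulfur clusters, 5 were lower (median -0.70). Of 8 members of complex III, 7 were lower (median -0.70), and all 10 ubiquitous subunits of complex IV were lower (median -0.71). Of 17 ATP synthase subunits, 1 was higher and 13 were lower (median -0.35). The complex I assembly factors were mixed, with 2 of 8 higher and 4 lower in DU145. The enzymes of the tricarboxylic acid cycle, which feed the chain, had 0 of 12 higher and 10 lower in DU145 than in 22Rv1.

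**Figure D1:**
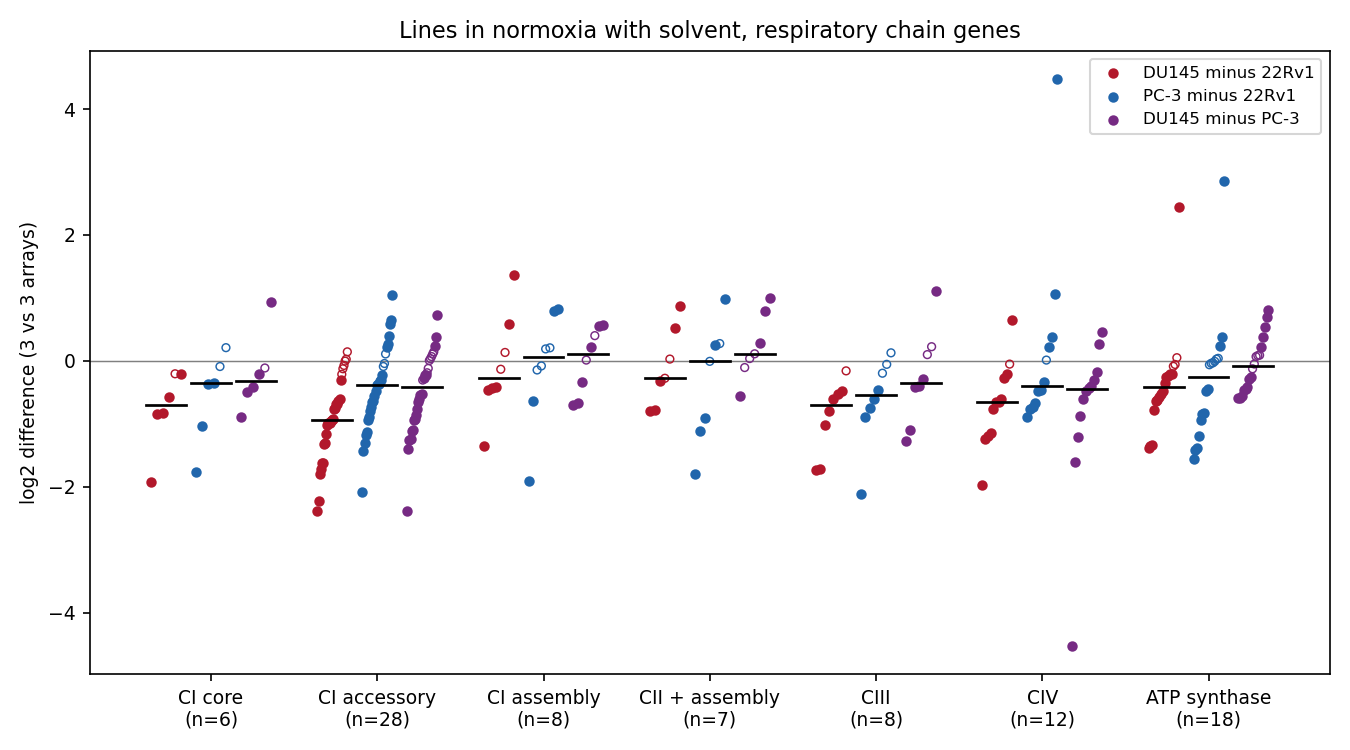
Log2 differences between the lines in normoxia with solvent (vertical axis), by complex along the horizontal axis, with a colour for each pair of lines. Each point is 1 tested member, filled where it passed the test, and each black bar is the median of its points. In DU145 against 22Rv1, most points of complexes I, III and IV lie below 0.

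COX5B, which binds zinc in complex IV, had 11.58, 11.68 and 11.45 in DU145, 12.80, 12.63 and 12.92 in PC-3 and 13.44, 13.58 and 13.63 in 22Rv1. The 3 lines did not overlap, and the difference, DU145 minus 22Rv1, was -1.98 ± 0.09 (SE; limma, adjusted p = 4.81e-18). NDUFA6, a small accessory subunit of the matrix arm of complex I, had 7.95, 8.08 and 7.98 in DU145, 9.16, 8.70 and 8.92 in PC-3 and 10.20, 10.27 and 10.22 in 22Rv1. The lines lay apart, and DU145 minus 22Rv1 was -2.23 ± 0.11 (limma, adjusted p = 5.38e-17). NDUFB7, an accessory subunit on the outer face of the membrane arm, had 9.43, 9.52 and 9.34 in DU145, 11.87, 11.86 and 11.71 in PC-3 and 11.18, 11.28 and 11.22 in 22Rv1. Here PC-3 was highest, and DU145 minus PC-3 was -2.38 ± 0.10 (limma, adjusted p = 3.00e-19).

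Some members stood out in a single line. NDUFB4, an accessory subunit of the membrane arm, had 4.43, 4.43 and 4.46 in DU145 and 4.72, 4.73 and 4.79 in PC-3, not above background on any of these arrays, against 6.82, 6.81 and 6.87 in 22Rv1. It was at least 2.59-fold lower in DU145 and at least 2.91-fold lower in PC-3 than in 22Rv1. The NDUFB4 probe passed the signal filter only through 22Rv1 arrays, so a test between the lines adds no support and none is given. ATP5MK, a small membrane subunit that helps ATP synthase dimers form, had 8.61, 8.34 and 8.06 in DU145 and 8.83, 8.82 and 8.64 in PC-3, against 5.60, 6.28 and 5.81 in 22Rv1. Its direction was opposite to that of most members, with DU145 above 22Rv1 by 2.44 ± 0.14 and PC-3 above 22Rv1 by 2.86 ± 0.14. COX7A2L, which joins complexes III and IV into supercomplexes, also had its lowest values in 22Rv1, with 10.65, 10.66 and 10.53 in DU145, 10.97, 11.05 and 11.05 in PC-3 and 10.05, 9.94 and 9.90 in 22Rv1. NDUFAF7, a methyltransferase that acts in complex I assembly, had 9.04, 8.85 and 9.02 in DU145, 8.40, 8.32 and 8.51 in PC-3 and 7.54, 7.57 and 7.73 in 22Rv1. It was 1 of the 2 members highest in DU145, together with SDHAF3.

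PC-3 had the lowest values of 16 members, passing against both other lines. That is 18.4% of the members, against 17.9% of all genes. UQCR11, a small subunit of complex III, had 7.55, 7.52 and 7.74 in DU145, 6.44, 6.46 and 6.60 in PC-3 and 8.67, 8.53 and 8.67 in 22Rv1. SDHAF1, which helps place iron-sulfur clusters in complex II, had 8.50, 8.80 and 8.79 in DU145, 7.77, 7.63 and 7.67 in PC-3 and 9.57, 9.44 and 9.44 in 22Rv1. NDUFS7, a core iron-sulfur subunit of complex I, had 10.50, 10.58 and 10.46 in DU145, 9.56, 9.52 and 9.64 in PC-3 and 11.36, 11.36 and 11.29 in 22Rv1. In all 3 genes PC-3 lay below both other lines with no overlap, by 1.10 ± 0.10, 1.01 ± 0.10 and 0.94 ± 0.08 against DU145 as DU145 minus PC-3. The 6 members ATP5F1B, ATP5PF, NDUFA8, NDUFAF2, NDUFV3 and SDHA passed in none of the 3 pairs of lines. That is 6.9% of the members, against 13.4% of all genes, and it does not show that their levels were equal.

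COX7B2, an isoform of the complex IV subunit COX7B known mainly from testis, was the member that differed most. In normoxia with solvent it had 4.33, 4.46 and 4.39 in DU145, 8.43, 8.73 and 9.60 in PC-3 and 4.43, 4.33 and 4.57 in 22Rv1. It was not above background in DU145 or 22Rv1, so PC-3 was at least 11-fold higher than DU145 and at least 12.4-fold higher than 22Rv1. The COX7B2 probe passed the signal filter only through PC-3 arrays, so a test between the lines adds no support and none is given. In PC-3 it had 7.82, 8.20 and 9.04 in hypoxia with vorinostat, 8.21, 8.51 and 9.29 in normoxia with vorinostat and 7.70, 8.005 and 9.10 in hypoxia with solvent. The array numbered 3 was the highest in all 4 PC-3 groups, and the spread between replicates was wide, with a mean of 8.27 ± 0.74 in hypoxia with solvent, against 8.92 ± 0.61 in normoxia with solvent (SD, n = 3 each). The difference, hypoxia minus normoxia, was -0.65 ± 0.28 (SE) and did not pass (limma, adjusted p = 0.116), but it passed with the replicate number as a block (adjusted p = 2.28e-05), and each numbered array was lower in hypoxia than its namesake in normoxia. The usual isoform COX7B had 10.27, 9.85 and 9.73 in DU145 and 11.54, 11.30 and 11.85 in PC-3, and DU145 minus PC-3 was -1.61 ± 0.15.

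**Figure D2:**
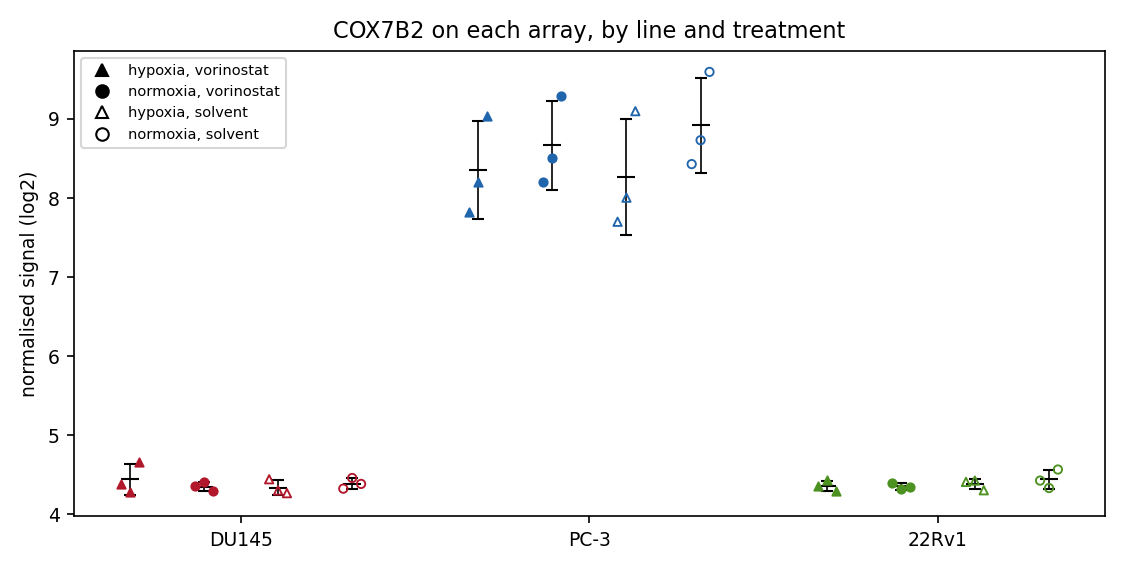
Normalised log2 signal of COX7B2 on each of the 36 arrays, by line. Filled symbols are vorinostat and open symbols solvent, triangles hypoxia and circles normoxia, and bars are the group mean ± SD of 3 arrays. All PC-3 arrays lie above all arrays of DU145 and 22Rv1, which were not above background.

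Vorinostat was compared with solvent in each line over both oxygen levels, 6 arrays against 6. In DU145, 38 of 87 members rose and 17 fell, where 52.6% of all genes tested passed (27.9% higher and 24.7% lower), with a member median of 0.16 against 0.01 over all genes. In PC-3, 15 rose and 19 fell, where 39.5% of all genes passed (19.8% higher and 19.7% lower), with a member median of -0.07. In 22Rv1, 11 rose and 27 fell, where 45.3% of all genes passed (22.9% higher and 22.4% lower), with a member median of -0.06. These splits moved with the scaling of the arrays. With median scaling they were 26 higher and 25 lower in DU145, 13 and 14 in PC-3, and 4 and 36 in 22Rv1. With cyclic loess they were 20 higher and 10 lower in PC-3 and 15 and 20 in 22Rv1.

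In DU145, the members that rose came from all complexes but the tested complex II subunits. Of 34 complex I subunits 16 rose and 9 fell, and of 12 members of complex IV 6 rose and 0 fell. Of 17 ATP synthase subunits 7 rose and 3 fell, and of 8 members of complex III 3 rose and 1 fell. In PC-3, 2 of the 34 complex I subunits rose and 11 fell, and in 22Rv1 4 rose and 12 fell. Complex IV had 4 of 12 higher and 1 lower in PC-3 and 2 higher and 1 lower in 22Rv1. Of the 8 complex I assembly factors, 3 rose and 3 fell in DU145, 1 rose and 2 fell in PC-3, and 2 rose and 5 fell in 22Rv1.

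**Figure D3:**
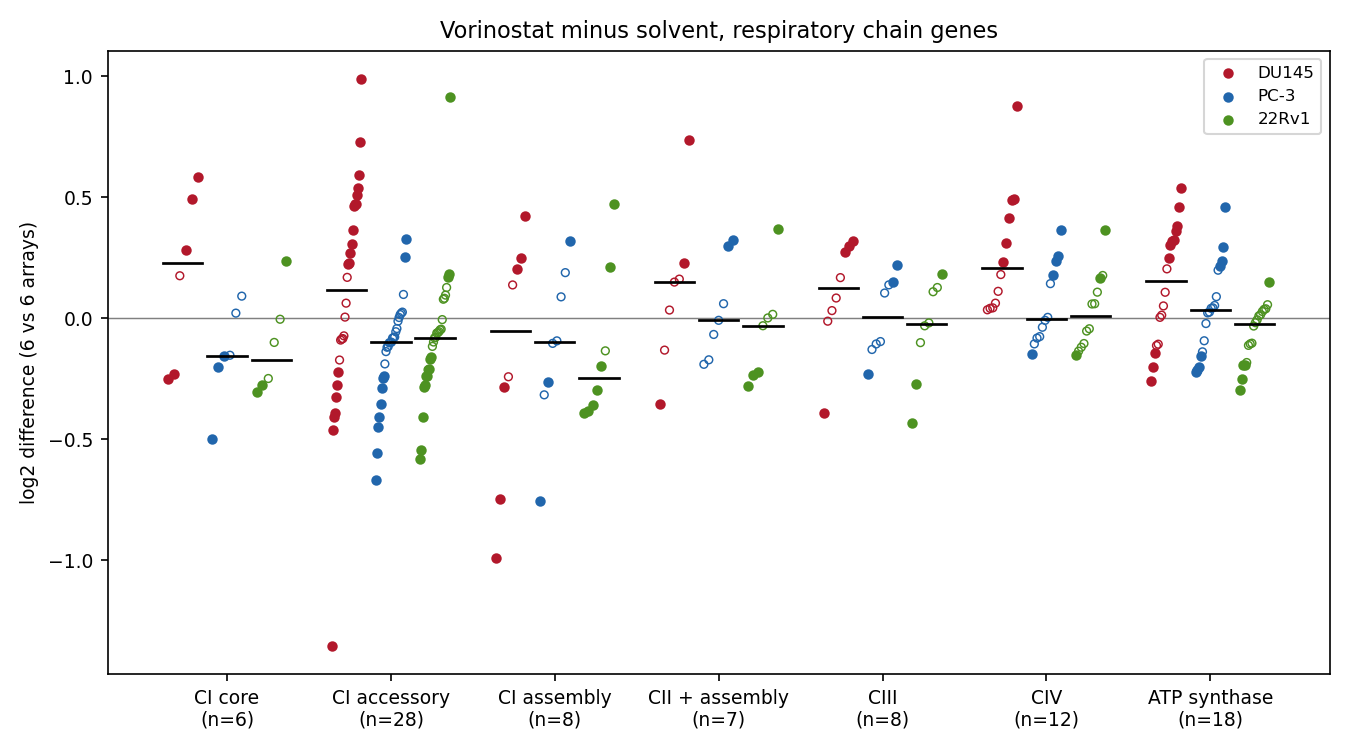
Log2 differences, vorinostat minus solvent, for the tested members (vertical axis), by complex along the horizontal axis, with a colour for each line. Points are filled where the member passed the test and open where it did not, and each black bar is the median of its points. The medians lie above 0 for complexes I and IV in DU145, and below 0 for complex I in PC-3 and 22Rv1.

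NDUFB3, an accessory subunit of the complex I membrane arm, rose most among the members in DU145. It ranged from 12.79 to 12.93 with a median of 12.82 with vorinostat, against 11.69 to 12.06 with a median of 11.87 with solvent. The 2 groups did not overlap, and the difference was 0.99 ± 0.06 (limma, adjusted p = 7.90e-15), a 1.98-fold change. In PC-3 NDUFB3 ranged from 12.46 to 12.88 with vorinostat, against 12.17 to 12.54 with solvent, overlapping, with a difference of 0.33. In 22Rv1 the ranges were 12.33 to 12.49 with vorinostat, against 12.10 to 12.32 with solvent, with a difference of 0.17 (limma, adjusted p = 0.0161, and 0.202 with median scaling).

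COX6A1, the widely expressed isoform of a regulatory subunit of complex IV, ranged in DU145 from 11.86 to 12.32 with a median of 12.15 with vorinostat, against 11.18 to 11.34 with a median of 11.25 with solvent. The groups did not overlap, and the difference was 0.88 ± 0.07 (limma, adjusted p = 2.64e-12). In PC-3 it ranged from 11.95 to 12.42 with vorinostat, against 11.64 to 12.003 with solvent, with a difference of 0.36. In 22Rv1 it ranged from 12.51 to 12.69 with vorinostat, against 12.39 to 12.46 with solvent, a difference of 0.17 that did not pass with median scaling (adjusted p = 0.284). Elsewhere in complex IV in DU145, COX7A2 rose by 0.49, COX6C by 0.41 and COX4I1 by 0.23, the last not passing with median scaling (adjusted p = 0.624).

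In all, 7 members rose with vorinostat in all 3 lines: ATP5PF, COX6A1, COX7A2L, NDUFAF3, NDUFB3, SDHAF3 and UQCRHL. That is 8.05% of the tested members, against 7.43% of all genes. With median scaling only COX7A2L and SDHAF3 passed in all 3 lines. SDHAF3, an assembly factor that helps complex II receive its iron-sulfur clusters, ranged in DU145 from 10.35 to 11.05 with vorinostat, against 9.80 to 9.96 with solvent. Its range was 9.75 to 10.02 with vorinostat, against 9.43 to 9.67 with solvent, in PC-3, and 9.56 to 9.94 with vorinostat, against 9.20 to 9.45 with solvent, in 22Rv1. The groups did not overlap in any line, and the differences were 0.74, 0.32 and 0.37. COX7A2L rose by 0.49 in DU145, 0.26 in PC-3 and 0.36 in 22Rv1. ATP5PF, part of the stalk that holds the ATP synthase head, rose by 0.54, 0.21 and 0.15. UQCRHL is a near-identical copy of the complex III hinge gene UQCRH, and whether their probes share transcripts was not tested.

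With vorinostat, 9 members fell in all 3 lines: ATP5ME, NDUFA6, NDUFAF6, NDUFB1, NDUFB2, NDUFC1, NDUFS3, NDUFS8 and NDUFV3. That is 10.3% of the tested members, against 7.88% of all genes, and 7 of the 9 are complex I subunits. NDUFA6, NDUFB1, NDUFB2 and NDUFS3 passed under every setting tried and with any 1 array left out. NDUFB2, an accessory subunit of the membrane arm, ranged from 11.83 to 11.998 with vorinostat, against 12.26 to 12.56 with solvent, in DU145. It ranged from 12.48 to 12.55 with vorinostat, against 13.10 to 13.29 with solvent, in PC-3, and from 12.63 to 13.05 with vorinostat, against 13.22 to 13.44 with solvent, in 22Rv1. The groups lay apart in every line, and the differences were -0.46, -0.67 and -0.54.

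NDUFA6 ranged from 7.36 to 7.84 with vorinostat, against 7.95 to 8.08 with solvent, in DU145 and from 9.38 to 9.86 with vorinostat, against 9.94 to 10.27 with solvent, in 22Rv1. In PC-3 the ranges overlapped, at 7.95 to 8.67 with vorinostat, against 8.46 to 9.16 with solvent. The 3 differences were -0.39 in DU145, -0.45 in PC-3 and -0.41 in 22Rv1. NDUFS3, a core subunit of the matrix arm, fell by 0.23 in DU145, 0.50 in PC-3 and 0.28 in 22Rv1. NDUFB1, another accessory subunit, fell below background with vorinostat in DU145 on 6 of 6 arrays and in PC-3 on 6 of 6, while all solvent arrays of both lines were above it. It ranged in DU145 from 4.73 to 5.26 with vorinostat, against 5.98 to 6.69 with solvent, so it was at least 1.89-fold lower (limma, adjusted p = 7.89e-12), and at least 1.26-fold lower in PC-3. In 22Rv1 it ranged from 5.02 to 5.85 with vorinostat, against 5.75 to 6.64 with solvent, a difference of -0.58.

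The assembly factor NDUFAF6 ranged from 7.31 to 7.71 with vorinostat, against 8.12 to 8.60 with solvent, in DU145, and from 7.73 to 8.60 with vorinostat, against 8.81 to 9.17 with solvent, in PC-3. Neither pair overlapped, and the difference was -0.75 in both lines and -0.30 in 22Rv1. NDUFAF8, which works with the assembly factor NDUFAF5, ranged in DU145 from 5.89 to 6.43 with vorinostat, against 6.55 to 7.57 with solvent, a difference of -0.99 ± 0.13 (limma, adjusted p = 2.67e-07). Its difference was -0.36 in 22Rv1, which passed, and -0.32 in PC-3, which did not (adjusted p = 0.0615, and 0.0361 with the replicate number as a block). The calls of ATP5ME and NDUFS8 in PC-3 did not pass with median scaling (adjusted p = 0.0666 and 0.0969), and the probes of ATP5ME passed in opposite directions in PC-3.

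**Figure D4:**
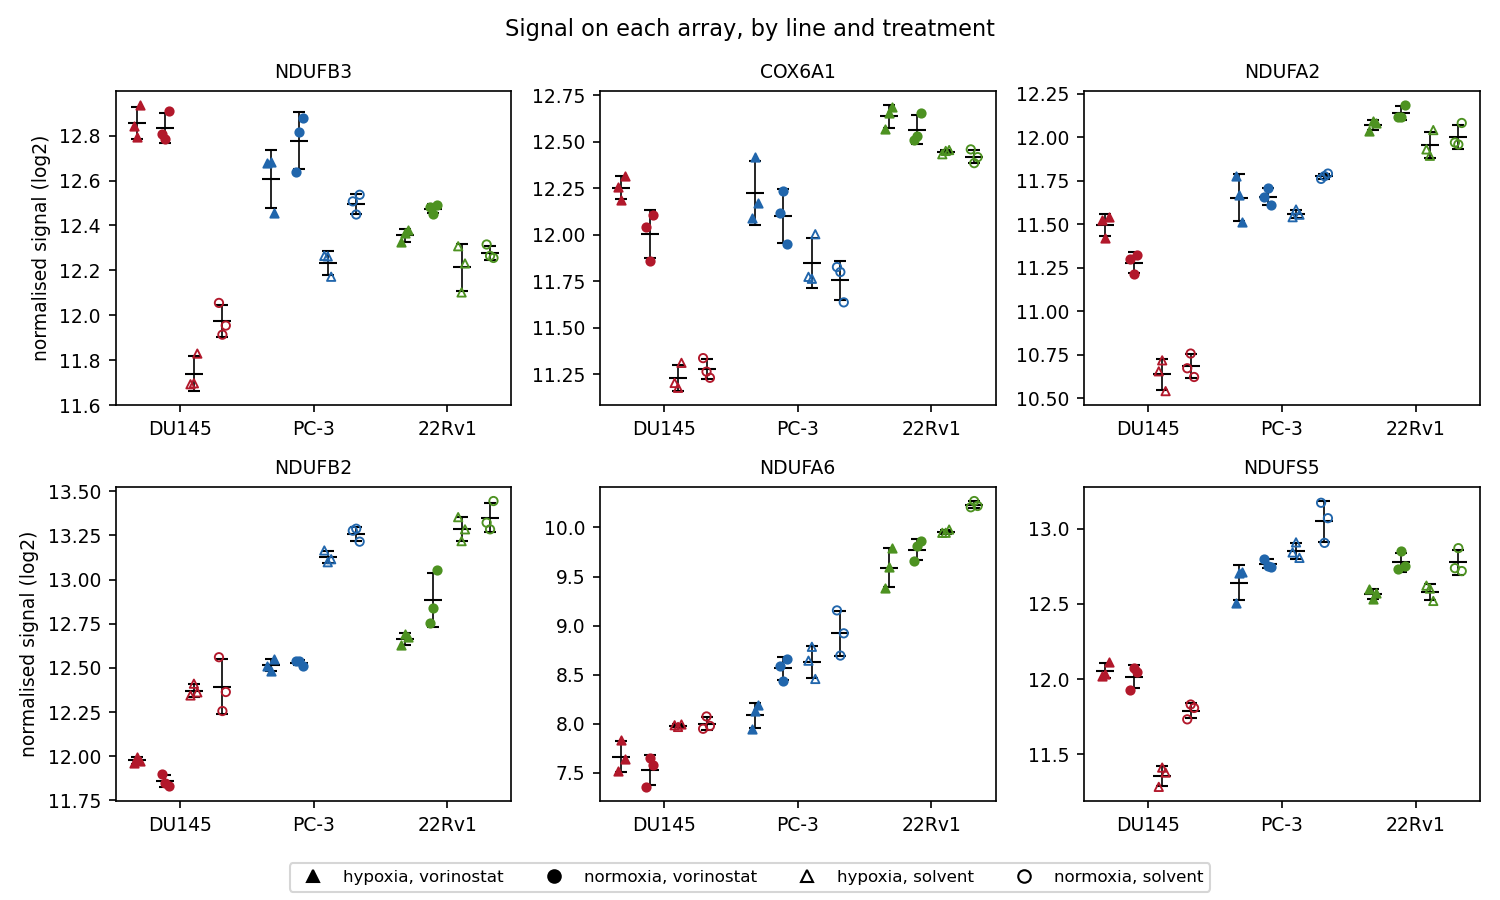
Normalised log2 signal of NDUFB3, COX6A1, NDUFA2, NDUFB2, NDUFA6 and NDUFS5 on each array, by line. Filled symbols are vorinostat and open symbols solvent, triangles hypoxia and circles normoxia, and bars are the group mean ± SD of 3 arrays. Vorinostat arrays of NDUFB2 lie below all solvent arrays of the same line, and those of NDUFA2 lie above the solvent arrays in DU145.

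The size of the vorinostat difference was itself compared between lines. In DU145 minus PC-3, 32 members had a higher difference and 3 a lower one, where 31% of all genes tested passed (17.7% higher and 13.3% lower). With median scaling these were 16 and 5. In DU145 minus 22Rv1, 37 were higher and 5 lower, where 39.4% of all genes passed (21.2% higher and 18.2% lower). In PC-3 minus 22Rv1, 9 were higher and 6 lower, where 28.2% of all genes passed (13.5% higher and 14.7% lower), and the split was 15 and 3 with median scaling and 10 and 4 with cyclic loess. The comparisons share arrays of each line.

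NDUFA2, an accessory subunit near the NADH-oxidising end of complex I, ranged in DU145 from 11.21 to 11.54 with vorinostat, against 10.54 to 10.76 with solvent. The groups did not overlap and the difference was 0.73 ± 0.05, against -0.01 in PC-3 and 0.13 in 22Rv1, which did not pass. The difference between the effects in DU145 and PC-3 was 0.74 ± 0.08 (limma, adjusted p = 1.05e-08). NDUFS5, an accessory subunit on the outer face of the membrane arm, ranged in DU145 from 11.93 to 12.11 with vorinostat, against 11.28 to 11.83 with solvent. In PC-3 it ranged from 12.50 to 12.80 with vorinostat, against 12.81 to 13.17 with solvent. It thus rose by 0.46 in DU145 and fell by 0.25 in PC-3, with no overlap in either, and the difference between these effects was 0.71 ± 0.08 (limma, adjusted p = 5.55e-08).

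NDUFS5 was 1 of 8 members that passed in opposite directions in at least 2 lines, which is 9.20% of the members, against 6.97% of all genes. SDHA, the flavoprotein of complex II, rose by 0.30 in PC-3 and fell by 0.22 in 22Rv1, with 0.16 in DU145, which did not pass. ATP5IF1, which inhibits ATP synthase when it runs backwards, rose by 0.32 in DU145 and fell by 0.25 in 22Rv1, but its probes disagreed in DU145 and with median scaling the DU145 call did not pass (adjusted p = 0.0649). NDUFB11, a membrane-arm subunit, rose by 0.51 in DU145 and fell by 0.24 in 22Rv1, and NDUFA12, an accessory subunit of the matrix arm, rose by 0.47 in DU145 and fell by 0.29 in 22Rv1. SDHC and SDHD, the membrane anchors of complex II, passed in no line.

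In 22Rv1 the member that rose most was NDUFB4, which ranged from 6.92 to 8.16 with vorinostat, against 6.49 to 6.87 with solvent, a difference of 0.91 ± 0.11 (limma, adjusted p = 2.41e-08). It was above background in 22Rv1 alone. UQCR10, a small subunit of complex III, ranged in 22Rv1 from 9.53 to 9.97 with vorinostat, against 10.01 to 10.35 with solvent, with no overlap and a difference of -0.43. In PC-3, ATP5MK ranged from 9.02 to 9.16 with vorinostat, against 8.31 to 8.83 with solvent, a difference of 0.46 ± 0.10 (limma, adjusted p = 3.44e-04).

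Hypoxia was compared with normoxia in the solvent groups, 3 arrays against 3. With solvent, more members fell than rose in every line. In DU145, 3 of 87 rose and 10 fell, where 14.7% of all genes tested passed (7.84% higher and 6.91% lower). With cyclic loess the split was 4 and 7. In PC-3, 0 rose and 17 fell, where 16.9% of all genes passed (7.35% higher and 9.53% lower), and with median scaling the split was 1 and 9. With the replicate number as a block, ATP5MJ, COX7B2, NDUFA11 and NDUFAF8 also fell in PC-3 and no call was lost. In 22Rv1, 0 rose and 12 fell, where 20.2% of all genes passed (9.89% higher and 10.3% lower), and in the deposited normalised values the split was 1 and 23. The member medians were -0.05 in DU145, -0.13 in PC-3 and -0.15 in 22Rv1, against 0.01, -0.02 and -0.02 over all genes. With vorinostat, the difference, hypoxia minus normoxia, was positive for 57 and negative for 30 of the 87 members in DU145 (median 0.06), 28 and 59 in PC-3 (median -0.08) and 22 and 65 in 22Rv1 (median -0.09), given as a description with no test.

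The assembly factors of complex I, proteins that build the enzyme and leave it, had the lowest median of the role groups in each line among groups of at least 3 tested members, at -0.27 in DU145, -0.43 in PC-3 and -0.34 in 22Rv1. Of the 8, 0 rose, and 3 fell in DU145, 4 in PC-3 and 5 in 22Rv1. NDUFAF4, which acts early on the matrix arm together with NDUFAF3, had 8.05, 8.25 and 8.21 in hypoxia, against 9.18, 8.86 and 9.03 in normoxia, in DU145. It had 7.89, 8.13 and 7.58 in hypoxia, against 8.36, 8.74 and 8.32 in normoxia, in PC-3, and 9.89, 10.00 and 10.11 in hypoxia, against 10.27, 10.49 and 10.38 in normoxia, in 22Rv1. The groups did not overlap in any line. The differences were -0.85 ± 0.13, -0.60 ± 0.13 and -0.38 ± 0.13 (limma, adjusted p = 1.66e-05, 0.00105 and 0.0318). With vorinostat the oxygen difference of NDUFAF4 in DU145 was -0.17 ± 0.13 and did not pass (adjusted p = 0.477). The 22Rv1 call with solvent did not hold when any 1 of 4 arrays was left out (adjusted p up to 0.133).

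NDUFAF1, which acts in the assembly of the membrane arm, had 8.04, 7.93 and 8.20 in hypoxia, against 8.62, 8.76 and 8.68 in normoxia, in PC-3. In 22Rv1 it had 8.38, 8.12 and 8.39 in hypoxia, against 8.76, 8.65 and 8.89 in normoxia. The groups lay apart in both lines, and it fell by 0.63 in PC-3 and by 0.47 in 22Rv1, with -0.27 in DU145, which did not pass. NDUFAF8 had 6.79, 7.001 and 6.55 in hypoxia, against 7.57, 7.33 and 7.42 in normoxia, in DU145, and 6.15, 6.17 and 6.03 in hypoxia, against 6.84, 6.70 and 7.01 in normoxia, in 22Rv1. It fell by 0.66 and 0.73 in these lines, with no overlap, and had -0.48 in PC-3, which did not pass (adjusted p = 0.079, and 0.0443 with the replicate number as a block). The block also brought ATP5MJ (-0.22, adjusted p = 0.0417) and NDUFA11 (-0.26, 0.0464) past the threshold in PC-3. NDUFAF3 fell in PC-3 and 22Rv1, but neither call passed with median scaling (adjusted p = 0.112 and 0.0555). NDUFAF5 and NDUFAF6 passed in no line.

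**Figure D5:**
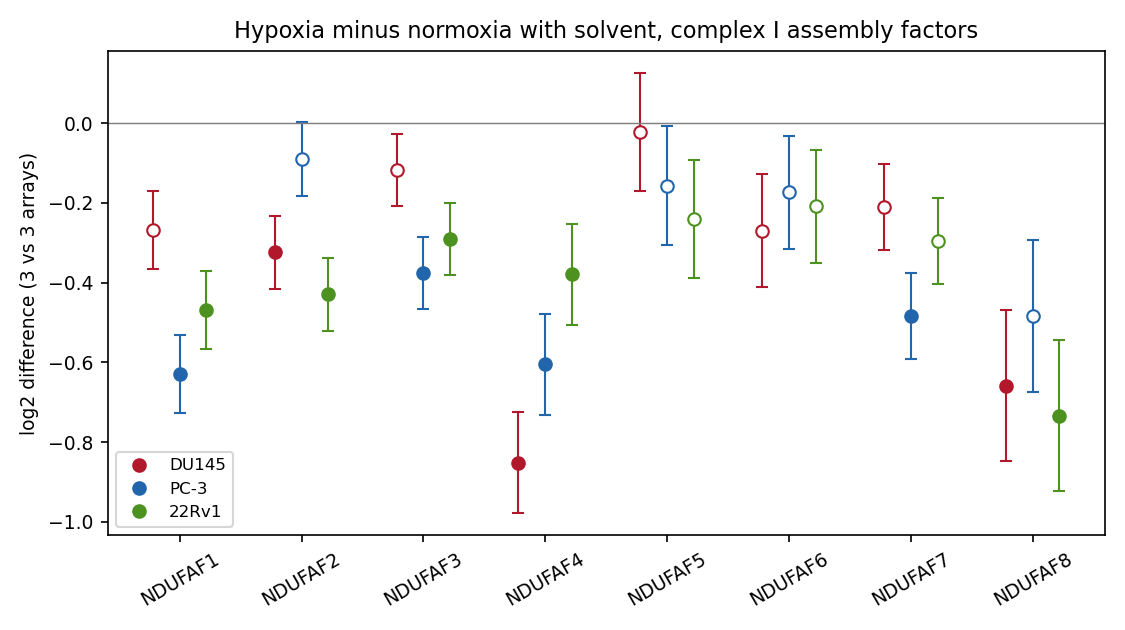
Log2 differences, hypoxia minus normoxia with solvent, of the 8 complex I assembly factors in the 3 lines. Points are the difference and bars its SE, with filled points where the test passed. All points lie below 0, and NDUFAF4 is filled in all 3 lines.

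Only NDUFAF4 and ATP5MC1 fell in all 3 lines, and 0 members rose in all 3. The first is 2.30% of the members, against 2.07% of all genes, and 1.76% of all genes rose in all 3. ATP5MC1, 1 of 3 genes that code for the proton-carrying ring subunit of ATP synthase, had 11.82, 11.92 and 11.84 in hypoxia, against 12.20, 12.35 and 12.28 in normoxia, in DU145. It had 11.37, 11.20 and 11.09 in hypoxia, against 11.66, 11.56 and 11.55 in normoxia, in PC-3, and 12.26, 12.01 and 12.14 in hypoxia, against 12.58, 12.63 and 12.40 in normoxia, in 22Rv1. The groups did not overlap, and it fell by 0.42, 0.37 and 0.40. The PC-3 call did not pass with median scaling (adjusted p = 0.0511). Its sister gene ATP5MC2 fell by 0.49 in PC-3 and 0.34 in 22Rv1, with -0.30 in DU145, which did not pass, nor did PC-3 with median scaling (adjusted p = 0.051). NDUFV3, an accessory subunit at the NADH-oxidising end of complex I, fell by 0.55 in PC-3 and 0.48 in 22Rv1.

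Of the 12 tested members of complex IV, COX7A2L rose and COX7C fell in DU145, and 0 passed in PC-3 or 22Rv1. The COX7A2L call did not pass with median scaling (adjusted p = 0.148). The COX7C call was close to the threshold (limma, adjusted p = 0.0493) and did not pass with the replicate number as a block (0.0517). COX4I1, the isoform that is replaced by COX4I2 in some hypoxic cells, had differences of 0.11 in DU145, 0.03 in PC-3 and 0.02 in 22Rv1, which did not pass, and COX4I2 was not above background on any array. SDHA had 10.76, 10.73 and 10.81 in hypoxia, against 10.23, 10.41 and 10.50 in normoxia, in DU145. It rose there by 0.38 ± 0.10, and in 22Rv1 it had 10.10, 10.20 and 10.20 in hypoxia, against 10.40, 10.27 and 10.40 in normoxia, a difference of -0.19 that did not pass. NDUFB8, a membrane-arm subunit, had 12.29, 12.27 and 12.24 in hypoxia, against 12.003, 11.89 and 11.94 in normoxia, in DU145, and rose by 0.32 ± 0.09.

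The difference of the hypoxia effect between lines passed for SDHA in DU145 minus 22Rv1 (0.57 ± 0.15; limma, adjusted p = 0.016), the only member of 87 in this pair, where 5.76% of all genes passed. It did not pass without the DU145 normoxia with solvent array 1 (adjusted p = 0.0547). In DU145 minus PC-3 it passed for 0 members (9 at an unadjusted p under 0.05), where 2.85% of all genes passed, and in PC-3 minus 22Rv1 for 0 (7 unadjusted), where 5.19% did.

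Whether the vorinostat difference depended on oxygen was tested within each line, and 1 member passed in DU145, 0 in PC-3 (7 at an unadjusted p under 0.05) and 1 in 22Rv1. Over all genes 0.728% passed in DU145, 0.0566% in PC-3 and 0.728% in 22Rv1. NDUFS5 in DU145 had 12.02, 12.04 and 12.11 in hypoxia with vorinostat and 11.93, 12.07 and 12.05 in normoxia with vorinostat, against 11.28, 11.41 and 11.38 in hypoxia with solvent and 11.73, 11.83 and 11.81 in normoxia with solvent. The solvent arrays were lower in hypoxia and the vorinostat arrays lay close together. The vorinostat difference was 0.70 in hypoxia and 0.23 in normoxia, a gap of 0.47 ± 0.11 (limma, adjusted p = 0.0388). It did not pass with median scaling (adjusted p = 0.25) or without any 1 of 10 of the 12 DU145 arrays (adjusted p up to 0.11). NDUFB1 in 22Rv1 had 5.80, 5.85 and 5.54 in hypoxia with vorinostat and 5.02, 5.37 and 5.66 in normoxia with vorinostat, against 5.91, 5.75 and 5.80 in hypoxia with solvent and 6.26, 6.38 and 6.64 in normoxia with solvent. Its vorinostat difference was -0.09 in hypoxia and -1.08 in normoxia, a gap of 0.99 ± 0.22 (limma, adjusted p = 0.0161), which did not pass without any 1 of 5 of the 22Rv1 arrays (adjusted p up to 0.0791).

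The other genes of the pathway were taken from lists by role. CYCS, cytochrome c, rose with vorinostat by 1.17 in DU145 (limma, adjusted p = 8.79e-08) and 0.42 in 22Rv1, with 0.28 in PC-3, which did not pass. CYC1, the haem subunit of complex III, fell with vorinostat by 0.34 in DU145 and 0.22 in 22Rv1 and in hypoxia by 0.26 in DU145 and 0.28 in PC-3. Of 14 regulators of mitochondrial gene expression, 1 rose and 6 fell with vorinostat in DU145, 2 rose and 4 fell in PC-3, and 1 rose and 4 fell in 22Rv1. Over all genes, 27.9% rose and 24.7% fell in DU145, 19.8% and 19.7% in PC-3, and 22.9% and 22.4% in 22Rv1. PPRC1, a coactivator of NRF1, fell by 1.11, 0.36 and 0.42 in DU145, PC-3 and 22Rv1. GABPA, the DNA-binding part of GABP, fell by 0.94 in DU145 and 0.45 in PC-3, while NRF1 and YY1 passed in no line.

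Of 22 complex IV assembly factors, 11 rose and 7 fell with vorinostat in DU145, 4 rose and 6 fell in PC-3, and 3 rose and 7 fell in 22Rv1. The shares of all genes passing with vorinostat were 52.6%, 39.5% and 45.3% in these lines. In hypoxia, 5, 7 and 6 of these 22 fell in DU145, PC-3 and 22Rv1, and 0, 0 and 2 rose. Of all genes, 6.91%, 9.53% and 10.3% fell and 7.84%, 7.35% and 9.89% rose. Of 77 genes of mitochondrial ribosomal proteins, 32, 36 and 38 fell and 0, 1 and 0 rose in hypoxia in DU145, PC-3 and 22Rv1, where 6.91%, 9.53% and 10.3% of all genes were lower, and their median was -0.28 in each line. CHCHD4, which imports small subunits of complexes I and IV into the space between the mitochondrial membranes, fell in hypoxia by 0.74, 0.66 and 0.45 and with vorinostat by 0.72, 0.44 and 0.89. ISCU, the scaffold on which iron-sulfur clusters form, fell in hypoxia by 0.49, 0.65 and 0.63. LONP1, a mitochondrial protease, rose in hypoxia by 0.62, 0.42 and 0.60, and BNIP3, a receptor for removal of mitochondria, by 1.48, 1.32 and 3.45.

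Motif counts were set beside the lists of members that moved together. Of the 7 members that rose with vorinostat in every line, 6 had a promoter, and of these 2 held the NRF1 motif and 3 the ETS motif. Of the 9 that fell in every line, 8 had a promoter, with 2 holding the NRF1 motif and 2 the ETS motif. Of the 26 members that fell in hypoxia in at least 1 line, 24 had a promoter, and 8 of these held ACGTG, against 26.2% of all member promoters. These counts are a description, and a window without a motif says nothing of the factor.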

How the data were processed

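Values were measured on 36 single-colour Illumina bead arrays. Per the file headers, the deposited non-normalised table gives for each of 47323 probes a mean bead intensity and a detection p-value per array. BeadStudio 3.1.3.0 is named in the submitters' processing notes. The second deposited table holds intensity values that, by their numbers, are quantile normalised on the linear scale (medians 110.8 to 110.9, equal rank order) and served as an alternative. Gene symbols come from the platform annotation updated through RefSeq: 30113 probes have 1 symbol, 8 several and 17202 none, and only the first kind was named.

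From the deposited intensity values, limma 3.58.1 in R 4.3.3 (neqc, offset 16) corrected background by detection p-value, quantile normalised the arrays and took log2. A probe was kept with a detection p-value under 0.01 on at least 3 arrays (21376 probes, 16501 with 1 symbol), and the brightest probe stood for its gene. The 12 group means were fitted over all 36 arrays with lmFit and eBayes (29.5 degrees of freedom), and p-values were adjusted by Benjamini-Hochberg over 12360 genes at 0.05. Where a group was not above background on any array, the fold is a bound against the lowest signal above background of each array. The number of arrays limits the precision. Median probe signals ranged from 92.5 to 126.6 over the arrays, and correlations between replicates from 0.985 to 0.995. No 2 arrays were identical.

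Members and gene lists were chosen with earlier results of these data known. Full statistics were reserved for the 4 members that changed most in each direction among those passing for the drug, oxygen and line comparisons, the 3 for each difference of effects, and, whatever their values, the COX4I, COX6A, COX6B and COX7A isoform pairs, the SDH subunits and ATP5IF1. Replicate numbers come from the labels. Over all genes, deviations of same-numbered arrays from their group means correlated at over 0.1 in 12, 16 and 2 of 18 pairs in DU145, PC-3 and 22Rv1. Every pair of a comparison did so for hypoxia in PC-3 (0.151, 0.179 and 0.353), where the numbers were taken to pair the arrays, but not for hypoxia in DU145 or 22Rv1 or for vorinostat over both oxygen levels. For vorinostat in PC-3 the pairs had 0.361, 0.468 and 0.3 in normoxia and 0.227, 0.0216 and 0.199 in hypoxia. Alternatives were other normalisations, backgrounds, filters, probe rules, weights, replicate blocks, subsets of arrays, and leaving out each array.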

Additional observations from a re-analysis of the deposited data

Results flagged for a closer look

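In 12 cases, the test of a difference between effects itself passed and the member was among the 3 that differed most. The vorinostat effect, vorinostat minus solvent on the log2 scale, differed between DU145 and PC-3 for NDUFA2 (DU145 minus PC-3 0.74 ± 0.08 (SE); limma, adjusted p = 1.05e-08) and NDUFS5 (0.71 ± 0.08, 5.55e-08). NDUFB1 was also flagged there, at -0.80. NDUFB1 was not above background on any vorinostat array of DU145 or PC-3, so this value and that in DU145 minus 22Rv1 below have no exact size. In normoxia with solvent, NDUFB1 was lower in PC-3 than in DU145. The DU145 minus PC-3 test of NDUFB1 cannot tell a different drug effect from this different solvent level, and its p-value is not given.

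In DU145 minus 22Rv1 the difference of the vorinostat effect was 0.82 ± 0.08 for NDUFB3 (limma, adjusted p = 2.48e-09) and -0.77 ± 0.15 for NDUFB1 (1.52e-04). In PC-3 minus 22Rv1 it was 0.57 ± 0.14 for ATP5MK (limma, adjusted p = 0.0021) and -0.57 ± 0.10 for NDUFAF1 (4.19e-05). NDUFB4 was also flagged, at -1.005 in DU145 minus 22Rv1 and -1.02 in PC-3 minus 22Rv1. It was above background on 0 arrays of DU145 and PC-3, so its change there has no measured size. The NDUFB4 probe passed the signal filter only through 22Rv1 arrays. Its tests between lines thus add no support, and their p-values are not given.

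The vorinostat effect differed between hypoxia and normoxia for NDUFS5 in DU145 (0.47 ± 0.11; limma, adjusted p = 0.0388) and for NDUFB1 in 22Rv1 (0.99 ± 0.22, 0.0161). The hypoxia effect differed between DU145 and 22Rv1 for SDHA (0.57 ± 0.15, 0.016).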

How the results depend on the processing

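Of 120 named values, 85 passed in the reported fit, and 66 of these kept direction and call under all 12 other settings and with each of the 36 arrays left out in turn, while 18 lost the call at least once and 1 changed sign. That 1 was ATP5IF1 in DU145 minus PC-3, which was -0.0020 with the mean of its probes. Of 35 values that had not passed, 14 changed sign. With median scaling these were COX6B1 (-0.0951) and SDHD (-0.0526) with vorinostat in DU145, SDHD (-0.138) with vorinostat in 22Rv1, and in hypoxia COX6B1 in PC-3 (0.0329) and COX6A1 in 22Rv1 (-0.0275). With cyclic loess they were COX4I1 (0.0112) with vorinostat in PC-3, SDHD (-0.00316) with vorinostat in 22Rv1, and COX7A2 (0.00866) and COX6B1 (0.00439) in hypoxia in DU145. With the mean of probes they were SDHC (-0.019) and ATP5IF1 (-0.0611) with vorinostat in PC-3, and in hypoxia ATP5IF1 in DU145 (-0.0809) and SDHC in PC-3 (0.0866). SDHD with vorinostat in 22Rv1 was -5.65e-04 in the deposited normalised values and -8.13e-04 without background correction. With 1 array left out, SDHD with vorinostat ranged from -0.0233 to 0.0906 in DU145 and from -0.0407 to 0.0435 in 22Rv1, and in hypoxia COX6B1 in DU145 ranged from -0.079 to 0.0304, COX4I1 in PC-3 from -0.0200 to 0.0817 and SDHD in PC-3 from -0.176 to 0.0108. The cause was not tested.

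Counts of members passing moved by over 1.5 times as follows. With the arrays of the compared lines fitted alone, they were 22 for vorinostat in PC-3, 5, 9 and 22 for hypoxia in DU145, PC-3 and 22Rv1, and 0 for the oxygen dependence in DU145 and in 22Rv1. With median scaling they were 10 and 19 for hypoxia in PC-3 and 22Rv1, 21 for the vorinostat effect in DU145 minus PC-3, 2 for the hypoxia effect in PC-3 minus 22Rv1, and 0 for the oxygen dependence in DU145, as with cyclic loess. Hypoxia in 22Rv1 gave 24 in the deposited normalised values, 24 without background correction, 19 with the mean of probes, 32 with array weights and 20 with a trended robust prior. The oxygen dependence in DU145 gave 2 in the deposited normalised values, without background correction, with an offset of 50, with a replicate block and with the trended prior, and in 22Rv1 0 with the filter on all 36 arrays. The hypoxia effect in DU145 minus PC-3 gave 2 in the deposited values, without background correction and with the trended prior, and 1 with an offset of 50. In DU145 minus 22Rv1 it gave 2 with array weights, and in PC-3 minus 22Rv1 1 with the mean of probes.

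With 1 array left out, counts ranged from 51 to 58, 29 to 35 and 28 to 40 for vorinostat and from 8 to 14, 13 to 18 and 6 to 16 for hypoxia in DU145, PC-3 and 22Rv1. The lowest hypoxia counts were 8 in DU145 without hypoxia with solvent array 1 or normoxia with solvent array 3, and 6 in 22Rv1 without normoxia with solvent array 2. They ranged from 0 to 2, 0 to 0 and 0 to 1 for the oxygen dependence, from 32 to 36, 38 to 42 and 13 to 19 for differences of the vorinostat effect, from 0 to 1, 1 to 2 and 0 to 0 for those of the hypoxia effect, and from 58 to 67, 67 to 71 and 60 to 66 for the untreated lines. With the number as a replicate block, hypoxia in PC-3, the paired comparison, gave 21 members in place of 17, with 4 gained and 0 lost. In the other treatment comparisons, same-numbered pairs did not all correlate at over 0.1. With the block, the hypoxia effect gave 1, 3 and 1 members in the 3 pairs of lines. NDUFV3 with vorinostat did not pass with the block in DU145 (adjusted p = 0.0582) or PC-3 (0.0548). ATP5MJ, NDUFAF7, NDUFAF8, NDUFB10 and NDUFB11 passed with it in PC-3 with vorinostat. NDUFAF5, NDUFB10, NDUFV2, SDHA, SDHAF1, SDHC and UQCR10 did so in DU145, and NDUFB9 in 22Rv1. A slide block was not run, since the slide is not given in the sources used here. Dim probes such as NDUFB1, NDUFB4, NDUFC2 and NDUFS1 are limited by signal over background.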

Other observations

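The difference of NDUFAF4 between hypoxia and normoxia was also measured with vorinostat, and it passed in PC-3 (-0.52 ± 0.13 (SE); limma, adjusted p = 0.00548) and 22Rv1 (-0.41 ± 0.13, 0.02) and not in DU145 (-0.17 ± 0.13, 0.477). In DU145 it had 8.52, 8.85 and 8.58 in hypoxia with vorinostat, against 8.82, 8.86 and 8.77 in normoxia with vorinostat, and these ranges overlapped. In PC-3 it had 7.55, 7.70 and 7.68 in hypoxia, against 8.05, 8.32 and 8.13 in normoxia, and in 22Rv1 9.45, 9.66 and 9.70 in hypoxia, against 9.92, 9.99 and 10.12 in normoxia. The groups did not overlap in PC-3 or 22Rv1. The vorinostat difference of NDUFAF4 in DU145 was 0.68 ± 0.18 higher in hypoxia than in normoxia, which did not pass (adjusted p = 0.07).

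Over all genes, 27.9% rose and 24.7% fell with vorinostat in DU145, 19.8% and 19.7% in PC-3, and 22.9% and 22.4% in 22Rv1. Of 12 tested enzymes of the tricarboxylic acid cycle, 4 rose and 3 fell with vorinostat in DU145, 2 rose and 2 fell in PC-3, and 1 rose and 3 fell in 22Rv1. Of 17 further assembly factors of complexes I and III and ATP synthase, 8 rose and 6 fell with vorinostat in DU145, 2 rose and 7 fell in PC-3, and 2 rose and 5 fell in 22Rv1. In hypoxia 3, 6 and 4 of these 17 fell in DU145, PC-3 and 22Rv1, where 6.91%, 9.53% and 10.3% of all genes fell. TMEM126B, which acts with NDUFAF1 in building the complex I membrane arm, fell in hypoxia by 0.41 in DU145 and 0.48 in PC-3, with -0.24 in 22Rv1, which did not pass. TFAM, which packs and transcribes mitochondrial DNA, fell with vorinostat by 0.50 in PC-3 and 0.56 in 22Rv1, with -0.14 in DU145, which did not pass. COX17, which carries copper to complex IV, rose with vorinostat by 0.40 in DU145 and 0.30 in PC-3 and fell by 0.23 in 22Rv1.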
